A study of Homo sapiens with 6 samples.

Results

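The replication-dependent histone genes are the genes whose symbols in the count files began with HIST1H, HIST2H, HIST3H or HIST4H, and 73 of the 24462 symbols met this rule. They comprised 6 linker histone H1 genes, 18 H2A genes, 20 H2B genes, 14 H3 genes and 15 H4 genes, of which 56 carried the HIST1 prefix, 13 the HIST2 prefix, 3 the HIST3 prefix and 1 the HIST4 prefix. No member was entered in more than 1 row of a file. HIST1H2APS1, HIST2H2BA and HIST2H2BC are symbols of pseudogenes, and they were kept because they met the rule.

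The libraries came from 1CT, an immortalized human colonic epithelial cell (HCEC) line with wild type APC, and from 1CT-A, the same line with APC knocked down, with 3 libraries of each. All cells were untreated and grew in the same medium with 20 ng/ml EGF, hydrocortisone, insulin, transferrin, 5 nM sodium selenite and 2% FBS. APC, the tumor suppressor gene that restrains Wnt signaling, was counted 417, 363 and 363 times in 1CT against 351, 342 and 433 times in 1CT-A, whose libraries were deeper, a log2 fold change of -0.58 (SE 0.09, edgeR quasi-likelihood test with Benjamini-Hochberg adjustment, adjusted p = 1.76e-04). Library totals were 7788679 to 8452258 counts for 1CT, and for 1CT-A they were 11158108 to 12602988 counts. A level of 3 counts, taken as the smallest visible, corresponded to 0.355 to 0.385 counts per 1000000 of the library total (CPM) in 1CT libraries, against 0.238 to 0.269 CPM for 1CT-A, and this limit covers counting error only. Of 10 colon epithelium markers, 4 exceeded 3 counts in any library, with a summed level of 13.5 to 17.4 CPM in 1CT against 3.23 to 7.29 CPM in 1CT-A, and the defining markers EPCAM and VIL1 were at 0 in all 6 libraries. Among the 4, KRT18 had 84, 109 and 82 counts in 1CT and 36, 80 and 62 in 1CT-A. KRT19 had 20, 27 and 34 counts in 1CT and 0 in every 1CT-A library. KRT8 reached at most 14 counts and CDH1 at most 4. All 10 mesenchymal markers exceeded 3 counts, with a summed level of 44916 to 52933 CPM in 1CT against 22101 to 23516 CPM in 1CT-A, so the marker check did not bear out the epithelial label. Most of that sum was FN1, and the other 9 summed to 4679 to 5652 CPM against 4402 to 4680 CPM. Of these 9, COL3A1 (2.37), TWIST1 (1.87) and ZEB1 (0.44) were higher in 1CT-A on the log2 scale. PDGFRB (-0.98), THY1 (-0.91), COL1A1 (-0.59) and VIM (-0.20) were lower, as was FN1 (-1.32). COL1A2 (-0.08, SE 0.11) and LUM (0.08, SE 0.15) differed by less than their SE. Only 1 of 7 immune and endothelial markers, CD68, exceeded 3 counts, and PTPRC, CD3E and CDH5 were at 0. Nothing in the labels says that same-group libraries came from separate cultures, so the p-values measure the spread between these libraries, which may be technical. In such bulk samples, fewer cells that express a gene and less RNA per cell cannot be told apart.

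Replication-dependent histone genes supply the core histones H2A, H2B, H3 and H4 and the linker histone H1 that package newly copied DNA, and their mRNAs accumulate in S phase. These mRNAs typically carry no poly(A) tail. They end shortly after a conserved stem-loop that is bound by SLBP, and some members also make polyadenylated transcripts, a form best known from differentiated or non-dividing cells. QuantSeq, the library kit named in the labels, is known for a form that primes on poly(A) with oligo(dT), to which a histone mRNA that ends at its stem-loop offers no tail. The kit is not settled here, since the study's methods describe a cDNA microarray and another RNA extraction than the labels, and the catalogue number in the labels was not matched to a kit version. How the RNA was primed, and the strand of the reads, are therefore uncertain for all values below.

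The stem-loops of the members discussed most are shown because they mark the usual end of a histone mRNA. All 73 members were matched through older symbols in RefSeq to a transcript of GENCODE 44 on GRCh38, and 66 had a transcript that ended within 20 bases after a match to the stem-loop pattern (GG, any 2 bases, CTTTT, any base, AG, any 2 bases, CC) on the transcript strand. The same pattern occurred in a protein-coding transcript of 91 of 19676 protein-coding gene names, or 0.463%, and 67 of those 91 were members. The stem-loop is in capitals, with the adjoining bases in lower case.
HIST1H4C: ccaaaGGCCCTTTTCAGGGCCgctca
HIST1H1C: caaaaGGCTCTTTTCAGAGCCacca
HIST2H2AA4: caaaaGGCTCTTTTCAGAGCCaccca
HIST1H2BK: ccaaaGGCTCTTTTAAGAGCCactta
HIST2H2AC: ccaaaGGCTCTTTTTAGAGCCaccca
HIST1H3G: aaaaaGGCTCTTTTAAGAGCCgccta

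The form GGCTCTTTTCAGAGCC was shared by 39 members of types H1, H2A, H2B and H3, and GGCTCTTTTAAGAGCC by 10 members. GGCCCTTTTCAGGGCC was found in 10 members and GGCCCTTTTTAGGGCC in 4, all of them H4 genes. HIST2H2AC alone carried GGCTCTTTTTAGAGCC. The 7 members without such a transcript end were HIST2H2BE, HIST2H2BC, HIST1H4L, HIST1H3E, HIST1H2BI, HIST2H2BA and HIST1H2APS1. A transcript that ended elsewhere was annotated for 23 members, these 7 and 16 that also had a stem-loop end, and in 17 of the 23 such a transcript held AATAAA or ATTAAA, the usual polyadenylation signals, in its last 50 bases. Of the 5 members that fell in 1CT-A, given below, HIST2H2BE and HIST1H2BD were among these 17 and HIST2H2AA4, HIST2H2AA3 and HIST1H3D were not, nor were any of the 6 that rose. A match to these letters is a description of the annotation and not evidence of the transcripts present in these cells.

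Most members were barely seen. In all 6 libraries 7 members were at 0 (HIST1H1T, HIST1H2AA, HIST1H2APS1, HIST1H2BA, HIST1H4A, HIST1H4F and HIST3H3), and another 24 had at most 3 counts in every library. Above 3 counts in at least 1 library were 42 members, and 15 exceeded it in all 6. Mean levels over the 6 libraries were at least 10 CPM for 6 members, between 1 and 10 CPM for 9 and under 1 CPM for 58. Those 58 genes summed to 8.33 CPM on average in 1CT and 11.4 CPM in 1CT-A. For scale, 399 olfactory receptor genes, which are not expected in these cells, summed to 15.8 ± 2.06 CPM for 1CT and 5.93 ± 0.333 CPM for 1CT-A (SD, n = 3 each). Per gene this was 0.0396 CPM in 1CT and 0.0149 CPM in 1CT-A. Without OR7E12P, the one with the most counts, left out after the values were seen, the sums were 8.47 and 2.63 CPM. Per gene this was 0.0213 and 0.00662 CPM. The sums of the 58 low members and of the olfactory receptor genes cover unlike numbers of genes and do not rank their levels per gene.

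Summed over all 73 members, the histone level was 454, 411 and 471 CPM in the 1CT libraries and 461, 442 and 463 CPM in the 1CT-A libraries. The means were 445 ± 31.1 CPM (SD, n = 3) and 456 ± 11.6 CPM (SD, n = 3), and the ranges of the cell lines overlapped. Behind this similar sum the makeup differed. H4 genes took 31.3% of histone counts in 1CT and 58.9% in 1CT-A, and H2A genes took 34.1% and 9.84%. Genes of the HIST2 group took 40.0% in 1CT and 11.03% in 1CT-A. The 6 genes with the highest levels (HIST1H4C, HIST1H1C, HIST2H2AA4, HIST1H2BK, HIST2H2AA3 and HIST2H2BE) held 92.3% of histone counts in 1CT and 91.7% in 1CT-A, so sums by type largely repeat single genes. The other 67 members summed to 34.2 CPM in 1CT and 37.7 CPM in 1CT-A.

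**Figure D1:**
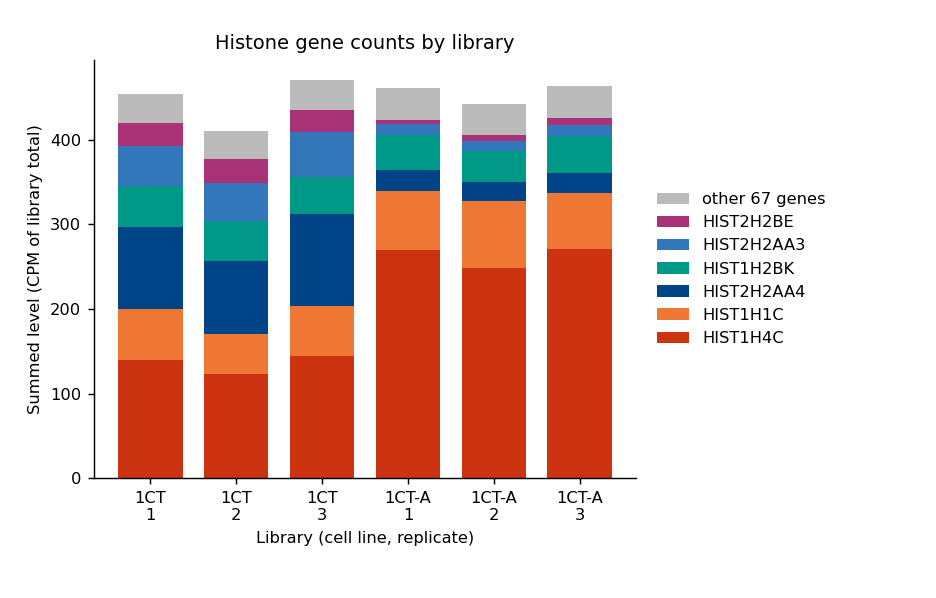
Stacked bars give the summed level of the histone genes in each library in CPM of the library total, with 1CT on the left and 1CT-A on the right and a colour for each of the 6 highest genes and for the other 67 together. Bars of both cell lines reach similar heights (411 to 471 CPM), while the HIST1H4C section is larger and the HIST2H2AA4, HIST2H2AA3 and HIST2H2BE sections are smaller in 1CT-A.

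In the test across all genes, 17 members had enough counts to enter and 56 did not. Of the 17, 11 differed at an adjusted p under 0.05 (edgeR quasi-likelihood test), against 51.0% of all 12514 genes tested. HIST1H4C, HIST1H1C, HIST2H2AC, HIST1H1D, HIST1H4J and HIST1H3G rose, or 6 members beside a background of 25.0% of tested genes. HIST2H2AA4, HIST2H2AA3, HIST2H2BE, HIST1H2BD and HIST1H3D fell, or 5 members beside a background of 26.0%. The median log2 fold change of the tested members was 0.36, and that of all tested genes was -0.0067. The libraries of the cell lines did not overlap in CPM for 13 of the 17, against 59.7% of all tested genes. Of these, 8 were higher in 1CT-A (31.8% of all tested genes) and 5 were lower (27.9% of all tested genes). By type, 2 of 4 tested H1 genes and 2 of 3 H4 genes rose with none falling, 2 of 4 H2B genes fell with none rising, and H2A (1 rose and 2 fell of 4) and H3 (1 and 1 of 2) were divided. The H2A falls were those of HIST2H2AA4 and HIST2H2AA3, near-identical copies whose reads can be divided in counting. Every tally here that holds both may therefore count the same fall more than once. At the stricter limits of a 2-fold difference and an unadjusted p below 0.01, 5 members passed, 2 higher and 3 lower, against 13.4% of all tested genes.

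**Figure D2:**
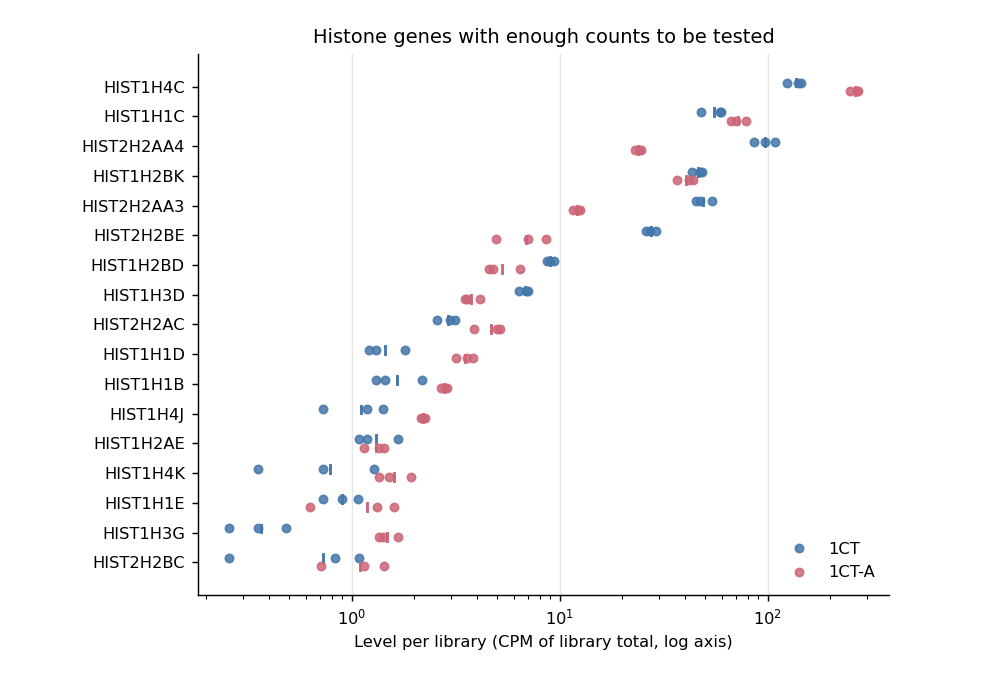
Each row is 1 of the 17 tested members, with the level of each library in CPM on a log axis as a point and the mean of each cell line as a short bar. HIST1H4C is the highest row and separates upward in 1CT-A, while the points of HIST2H2AA4, HIST2H2AA3 and HIST2H2BE separate downward by about 4-fold.

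Among the linker histones, which bind the DNA between nucleosomes, HIST1H1C stood at 59.5, 47.7 and 58.8 CPM in the 1CT libraries and at 70.3, 78.7 and 66.6 CPM in the 1CT-A libraries. Every 1CT-A library was above every 1CT library, by a small margin. The log2 fold change was 0.34 (SE 0.10, edgeR adjusted p = 0.0145), and the call was lost without 1CT replicate 2 (0.24, adjusted p = 0.0584) or without 1CT-A replicate 2 (0.28, adjusted p = 0.0734). HIST1H1D was at 1.30, 1.21 and 1.80 CPM in 1CT and at 3.58, 3.16 and 3.81 CPM in 1CT-A. Its groups did not overlap either, and its log2 fold change was 1.26 (SE 0.28, edgeR adjusted p = 0.00234). HIST1H1B, at 1.30, 1.45 and 2.18 CPM in 1CT and 2.69, 2.81 and 2.86 CPM in 1CT-A, was higher in every 1CT-A library but missed the threshold (0.73, SE 0.29, edgeR adjusted p = 0.0522). Without 1CT replicate 3, the highest of its 1CT libraries, the value was 0.99 with an adjusted p of 0.0221. The fourth tested linker gene, HIST1H1E, overlapped between the cell lines.

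The H2A counts came mostly from HIST2H2AA3 and HIST2H2AA4, a pair of near-identical copies on chromosome 1 whose annotated transcripts agreed in 533 of 534 aligned bases. HIST2H2AA4 stood at 97.1, 85.7 and 109 CPM in 1CT and at 24.6, 22.9 and 23.9 CPM in 1CT-A. HIST2H2AA3 stood at 47.2, 45.2 and 54.1 CPM in 1CT and at 12.5, 11.6 and 12.2 CPM in 1CT-A. Both genes were far lower in every 1CT-A library, with log2 fold changes of -2.07 (SE 0.10, edgeR adjusted p = 7.47e-09) and -2.05 (SE 0.11, edgeR adjusted p = 1.22e-08). The ratio of HIST2H2AA4 to HIST2H2AA3 counts lay between 1.90 and 2.06 in all 6 libraries, and reads of such copies can be divided in counting. Their sum was 146 CPM in 1CT and 35.9 CPM in 1CT-A on average, and it too is uncertain, since both share some 50-base windows with HIST2H2AC and HIST2H2AB.

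HIST2H2AC, another H2A gene of the same chromosome, went the other way. It was at 2.96, 3.14 and 2.57 CPM in 1CT and at 3.85, 5.18 and 5.00 CPM in 1CT-A, with no overlap. The log2 fold change was 0.65 (SE 0.23, edgeR adjusted p = 0.0279), but DESeq2 did not call it (adjusted p = 0.12), and the call was lost without 1CT replicate 1, 1CT replicate 3, 1CT-A replicate 2 or 1CT-A replicate 3, with adjusted p-values of up to 0.0884. Its log2 fold change was 0.59 to 0.77 with each library left out. HIST2H2AC shared 23.4% of its 50-base windows with other members, among them the HIST2H2AA copies that fell. HIST1H2AE, the remaining tested H2A gene, differed by -0.04 (SE 0.34, edgeR adjusted p = 0.936). Its approximate 95% interval ran from -0.70 to 0.63. It was taken from the SE with a normal multiplier and is narrower than few libraries warrant.

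For H2B, the partner of H2A in the nucleosome, HIST1H2BK had the most counts. It stood at 48.2, 47.1 and 43.3 CPM in 1CT and at 41.7, 36.4 and 43.7 CPM in 1CT-A, and the groups overlapped. Its log2 fold change of -0.22 (SE 0.09, edgeR adjusted p = 0.0647) did not pass, although it did without 1CT replicate 3 (-0.25, adjusted p = 0.0341). HIST2H2BE, whose annotated transcript holds a polyadenylation signal near its end and does not end at the stem-loop, was at 27.1, 29.0 and 25.9 CPM in 1CT and at 4.93, 7.02 and 8.57 CPM in 1CT-A. Every 1CT-A library was far below every 1CT library, with a log2 fold change of -2.03 (SE 0.16, edgeR adjusted p = 5.12e-07). HIST1H2BD, annotated with both kinds of end, was at 9.35, 8.69 and 8.99 CPM in 1CT and at 6.45, 4.56 and 4.76 CPM in 1CT-A. It fell by 0.82 on the log2 scale (SE 0.18, edgeR adjusted p = 0.00226), without overlap.

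The H3 genes were low throughout, with sums of 8.44 ± 0.192 CPM for 1CT and 7.14 ± 0.963 CPM for 1CT-A (SD, n = 3 each), and the 2 tested genes moved in opposite directions. HIST1H3D was at 6.39, 6.88 and 7.06 CPM in 1CT and at 4.12, 3.51 and 3.57 CPM in 1CT-A, a log2 fold change of -0.90 (SE 0.19, edgeR adjusted p = 0.0016). HIST1H3G had 3, 4 and 2 counts in 1CT and 15, 16 and 21 counts in 1CT-A, the largest rise among tested members, at 1.94 on the log2 scale (SE 0.43, edgeR adjusted p = 0.00211). Neither gene overlapped between the cell lines, and the value of HIST1H3G rests on few counts in 1CT.

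HIST1H4C, an H4 gene on chromosome 6, held the most counts of any single member, although the HIST2H2AA pair together held more in 1CT. It stood at 140, 123 and 145 CPM in the 1CT libraries and at 269, 249 and 270.5 CPM in the 1CT-A libraries. The lowest 1CT-A library was well above the highest 1CT library, with a log2 fold change of 0.91 (SE 0.08, edgeR adjusted p = 1.23e-06) that lay between 0.84 and 0.98 with each library left out. It shared no 50-base window with another member, and 69.9% to 74.1% of its aligned transcript bases were identical to those of the other H4 genes. The gene overlaps HIST1H2BC on the opposite strand in GENCODE 44. The strand setting of the counting is not given in the sources used here, so reads of the overlapping gene could not be told apart. The same limit holds for HIST1H3D, HIST1H1D, HIST1H3G and HIST1H2BD, which also overlap annotated genes on the opposite strand. HIST1H3D and HIST1H2BD overlap genes on their own strand as well. The next H4 genes had far fewer counts. HIST1H4J was at 1.18, 0.724 and 1.41 CPM in 1CT and at 2.24, 2.19 and 2.14 CPM in 1CT-A, without overlap (0.94, SE 0.33, edgeR adjusted p = 0.028), but DESeq2 did not call it (adjusted p = 0.147), and its call was lost when any library but 1CT replicate 3 was left out, with adjusted p-values of up to 0.121. HIST1H4K, which shares 92.6% of its 50-base windows with HIST1H4J, had a similar value that missed the threshold (0.99, SE 0.43, edgeR adjusted p = 0.0696), and reached it without 1CT replicate 3 (1.52, adjusted p = 0.0185). The HIST3 and HIST4 genes had at most 3 counts in every library.

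Among the 49 members that had a count but too few to be tested, the libraries of the cell lines did not overlap in CPM for 4. The share was 44.9% over all 19169 symbols with a count. That share includes the 12514 tested genes, of which 59.7% did not overlap. It is therefore no measure of other untested genes, and the 2 values cannot be ranked. HIST1H3C was 1 of the 4 but had exactly 2 counts in every library, so its lower CPM in 1CT-A reflects the library totals alone. HIST2H3C had 2, 0 and 1 counts in 1CT and 3, 3 and 6 counts in 1CT-A. HIST1H2BG was at 0.592, 1.33 and 0.642 CPM in 1CT and at 0.358, 0.351 and 0.397 CPM in 1CT-A. HIST1H4L was at 0.118, 0.242 and 0.257 CPM in 1CT and at 0.358, 0.439 and 0.873 CPM in 1CT-A. These genes were named after their values were seen, and several of their libraries hold 3 counts or fewer.

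**Figure D3:**
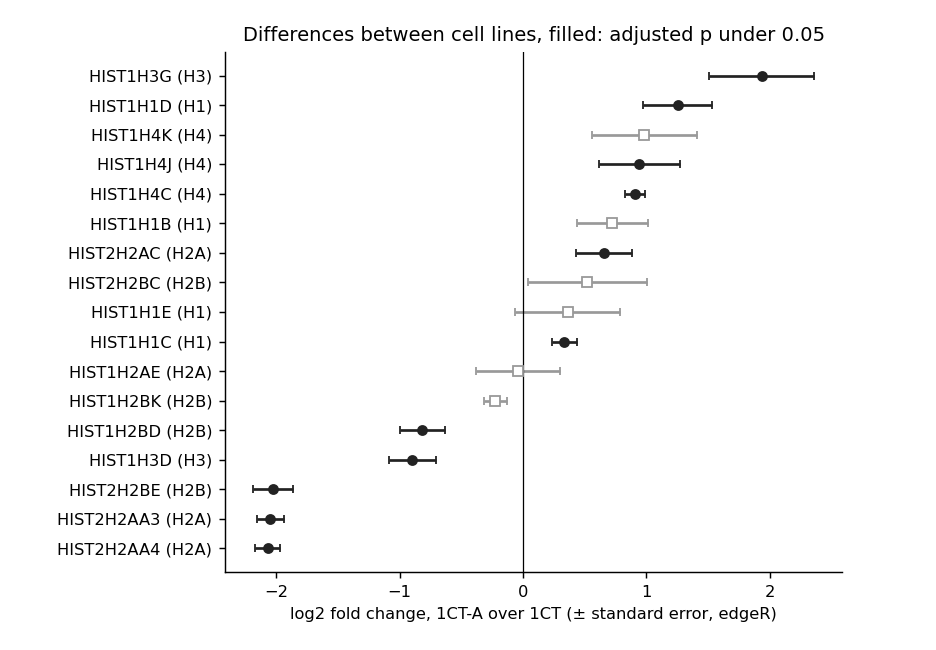
Points give the log2 fold change of 1CT-A over 1CT for the 17 tested members with bars of 1 standard error, filled where the edgeR adjusted p was under 0.05 and open otherwise. HIST1H3G is at the top (1.94), and HIST2H2BE, HIST2H2AA3 and HIST2H2AA4 lie together at the bottom between -2.07 and -2.03.

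Where libraries are primed with oligo(dT), which is uncertain here, the primer can also pair with internal runs of adenine, and the adenine content of the transcripts that end at the stem-loop was described. HIST1H4C contained a window with 11 adenines in 12 bases, shown in capitals with its adjoining bases, which ended 6 bases before the stem-loop.
HIST1H4C: aaaacaAAAACAAAAAAAcccaaa

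The other 13 H4 genes with such a transcript had at most 6 or 7 adenines in any window of 12 bases, and their longest run of adenine was 3 to 5 bases, against 7 in HIST1H4C. Only HIST1H4C, HIST1H1D and HIST1H2AA among the 66 members reached 10 of 12, and HIST1H2AA was at 0 in all 6 libraries. Among protein-coding gene names, 29.3% had a transcript with at least 11 adenines in 12 bases. That share counts any protein-coding transcript of any length, while each member was read in 1 transcript of 386 to 797 bases, so the measures are unlike. The median was 8 for the 14 members with a mean of at least 1 CPM and 7 for the 52 members under 1 CPM. Across the 66 members, which share libraries and partly sequence, Spearman's rho between this measure and the mean CPM was 0.31. Whether reads started at these windows cannot be read from counts per gene and was not tested.

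**Figure D4:**
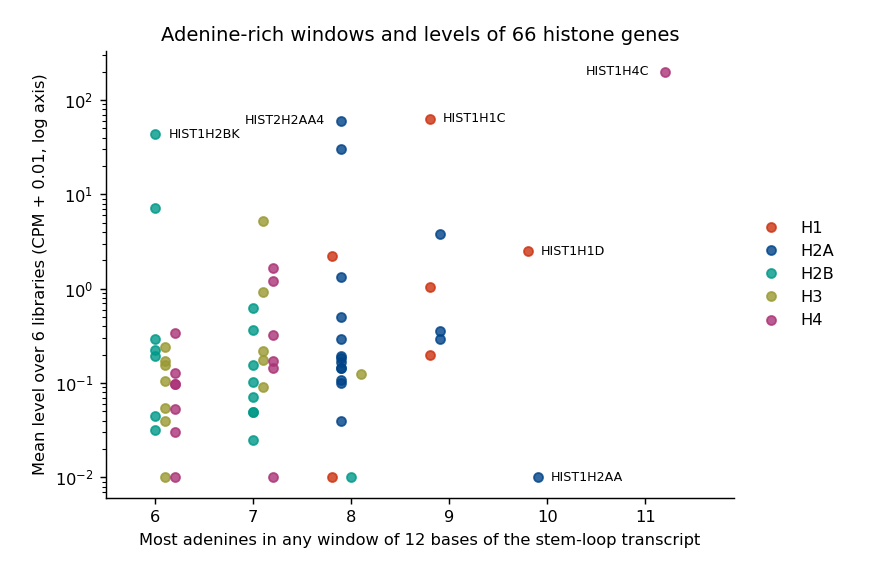
Each point is 1 of the 66 members with a transcript ending at the stem-loop, with the highest number of adenines in any 12 bases on the horizontal axis (histone types set slightly apart) and the mean CPM over 6 libraries plus 0.01 on a log vertical axis. HIST1H4C lies alone at 11 adenines and at the highest level, whereas HIST1H2AA with 10 adenines has no counts.

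HIST2H2AC and HIST2H2BE are shown by promoter because they start 236 bases apart on opposite strands and were the sole pair of facing members with both genes tested. The counts of HIST2H2AC relative to HIST2H2BE were 0.109, 0.108 and 0.0990 in the 1CT libraries and 0.782, 0.738 and 0.583 in the 1CT-A libraries. HIST2H2BE fell by 2.03 on the log2 scale, while the rise of HIST2H2AC (0.65) was smaller and was lost with DESeq2 and without some libraries. The promoter windows of HIST2H2AC and HIST2H2BE overlap by 265 bases, so most of the sequence is common to both genes. The HIST2H2AC window of RefSeq (GRCh38.p14, chr1:149886668-149886967, plus strand) is given with the CCAAT box, the TATAAA box and the octamer ATTTGCAT in capitals in either orientation.
HIST2H2AC: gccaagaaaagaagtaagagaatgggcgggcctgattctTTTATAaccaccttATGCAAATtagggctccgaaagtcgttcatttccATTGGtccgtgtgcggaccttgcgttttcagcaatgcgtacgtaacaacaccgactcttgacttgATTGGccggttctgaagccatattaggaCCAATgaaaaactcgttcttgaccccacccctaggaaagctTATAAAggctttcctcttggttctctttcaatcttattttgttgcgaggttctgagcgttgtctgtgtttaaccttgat

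This window held 3 CCAAT, 2 TATAAA and 1 ATTTGCAT match over both strands. Across the promoter windows of 69 members, CCAAT was found in 59 (34.6% of all 35116 promoters), TATAAA in 46 (11.5% of all) and ATTTGCAT, the octamer bound by POU2F1, in 27 (1.77% of all). The octamer was in 11 of 16 H2A and 15 of 20 H2B windows, in 1 of 14 H3 windows and in none of the H1 or H4 windows. CCAAT was in 3 of 13 H4 windows and in every window of the other types. These matches describe letters in the windows and say nothing of binding.

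Genes that act on histone mRNAs and proteins were read from the same test. Variant histones, most but not all of which have only polyadenylated mRNAs, were all 12 tested. Against 25.0% of all tested genes higher and 26.0% lower, 10 of them rose and 2 fell. The rises included H2AFZ (0.98, SE 0.06, edgeR adjusted p = 3.33e-08), H2AFX (0.97, SE 0.09, adjusted p = 2.52e-06) and the centromeric H3 variant CENPA (1.63, SE 0.20, adjusted p = 2.02e-05). H2AFJ (-1.06, adjusted p = 1.12e-05) and H2AFY2 (-1.13, adjusted p = 0.00658) fell. The median of the list was 0.60. Of 16 genes for 3′ end processing, 11 rose (background 25.0%) and none fell (background 26.0%), with a median of 0.46, among them the stem-loop binding protein SLBP (0.58, SE 0.10, edgeR adjusted p = 3.75e-04) and ZNF473, a zinc finger protein of the U7 complex (0.63, SE 0.16, adjusted p = 0.00536). Of 17 histone chaperones, 11 rose (background 25.0%) and 2 fell (background 26.0%), with a median of 0.43. NASP (0.92, adjusted p = 4.01e-07), which holds H3 and H4, rose, and CABIN1 (-0.46, adjusted p = 0.0066) and ATRX (-0.24, adjusted p = 0.0136) fell.

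Of 10 genes of the histone locus body and histone gene transcription, 5 rose (background 25.0%) and 2 fell (background 26.0%), with a median of 0.27. NPAT, the coactivator of histone genes, rose by 0.30 (SE 0.11, edgeR adjusted p = 0.0411) and CDK2, its kinase, by 0.70 (adjusted p = 3.39e-06), while POU2F1 (-0.44, adjusted p = 0.0166) and CCNE1 (-0.48, adjusted p = 0.00891) fell. DESeq2 called neither POU2F1 (adjusted p = 0.105) nor CCNE1 (0.0658) nor NPAT (0.0915), and NPAT was also lost with the replicate number as a block (edgeR adjusted p = 0.0521). Of 7 genes of histone mRNA decay, the exonuclease gene ERI1 alone rose (background 25.0%) and none fell (background 26.0%), with a median of -0.02. The log2 fold change of ERI1 was 0.82 (SE 0.13, edgeR adjusted p = 1.38e-04). The S phase genes of Seurat, a comparison list, had 40 of 42 tested genes higher (background 25.0%) and none lower (background 26.0%). Their median was 0.84, and 42 of 43 were higher in the package's updated list. The S phase list shares NASP, CHAF1B, SLBP, CCNE2 and CASP8AP2 with the lists above and is not separate from them. The histone sum had a ratio of 1.02 between the cell lines. Without HIST1H4C the sum was 309 CPM in 1CT and 193 CPM in 1CT-A, a ratio of 0.624. RNAs outside the usual mRNA pool also differed: MALAT1 and NEAT1, nuclear long RNAs, summed to 13879 ± 162 CPM for 1CT and 2495 ± 147 CPM for 1CT-A (SD, n = 3 each), and 431 small nuclear, nucleolar and related RNA genes to 133 ± 4.34 and 104 ± 5.26 CPM (SD, n = 3). The part of these differences in the histone values was not tested.

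**Figure D5:**
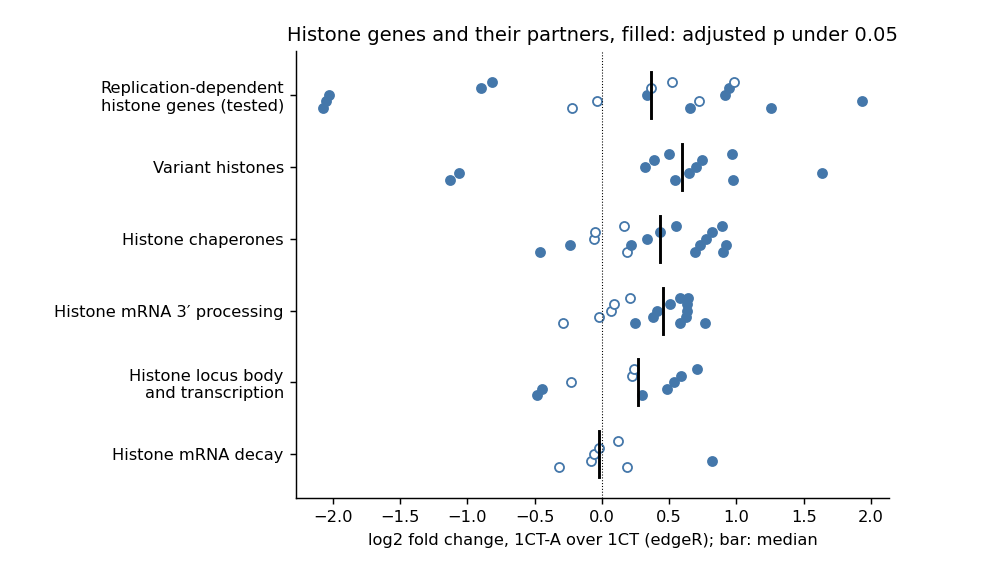
Each point is the log2 fold change of 1 tested gene, 1CT-A over 1CT, in rows for the replication-dependent histone genes and 5 lists of related genes, filled where the edgeR adjusted p was under 0.05, with the median as a bar (points are offset vertically for sight). The histone row spans from -2.07 to 1.94, and the medians are 0.60 for variant histones and -0.02 for histone mRNA decay.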

How the data were processed

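Bulk RNA was measured in 3 libraries each of 1CT and 1CT-A, grouped by sample title. The authors deposited raw counts per gene symbol, 1 file per library with 25737 entries, not normalized. The submitters' processing notes name Bowtie2, edgeR and hg19, without versions. The counting tool, annotation and strand setting are not given in the sources used here. The libraries were made from 500 ng of total RNA.

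Counts of repeated symbols were summed and scaled to CPM of the file total. edgeR 4.0.16 (R 4.3.3, limma 3.58.1) was run with TMM (factors 0.975 to 1.02), filterByExpr (minimum count 10), quasi-likelihood tests over all genes, no block, and Benjamini-Hochberg adjustment, called at 0.05. Each SE was derived as the absolute log2 fold change over the square root of the F statistic. The script was tested on simulated data. Sums over members were given without a test. An exact permutation test of 3 against 3 libraries cannot go below p = 0.1. Replicates differed by more than counting noise (chi-square per degree of freedom 3.11 to 9.00). Transcript ends came from GENCODE 44 and promoter windows and older symbols from RefSeq, both on GRCh38, not on the hg19 of the notes.

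The members and lists were chosen with earlier results of these data known. Named members were the 12 highest in mean CPM, the 6 largest called rises and falls, the highest of each type and group, and near-identical copies; genes of the lists and APC could be named. HIST1H2AA, HIST1H1E and members given only by count, sequence or listing fell outside this rule and were named after their values were seen. The S phase list was that of Seurat 5.3.0; its updated version was added after the calls of both versions and an earlier count were known.

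Same-numbered libraries did not deviate together (correlations -0.16, 0.22 and -0.14 over 8224 genes), so the numbers were not taken as pairs. The alternatives were DESeq2 1.42.0, its size factors in edgeR, library size only, other filters, a replicate block, other thresholds, and each library left out in turn.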

Additional observations from a re-analysis of the deposited data

How the results depend on the processing

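The number of members higher in 1CT-A was 6 in the fit as reported and also with the replicate number as a block, where the number lower was 5 and the same 11 were called. The numbers were not shown to pair the libraries (correlations of same-numbered libraries -0.16, 0.22 and -0.14). DESeq2 kept 9 of the 11, 4 higher and 5 lower. At a 2-fold difference and an unadjusted p below 0.01 the numbers were 2 and 3. With each library left out, 3 to 7 were higher, the lowest without 1CT-A replicate 2, and 5 to 6 lower. Of 193 alternative values of single tested members, 171 kept direction and side of the threshold, 18 changed side and 4 reversed. All 4 were HIST1H2AE, at 0.0015 with library size only, 0.0079 with no filter, 0.18 without 1CT replicate 3 and 0.0583 without 1CT-A replicate 2 (range -0.15 to 0.18 with each library left out). Among the lists, genes of the histone locus body were 3 to 5 higher and 1 to 3 lower with each library left out (3 and 1 without 1CT-A replicate 2), 4 higher with the block, which lost NPAT, and 0 lower by DESeq2. Decay genes were 1 to 2 higher and 0 to 1 lower (2 and 1 without 1CT replicate 3). Chaperones were 10 to 11 higher and 1 to 2 lower (1 lower without 1CT-A replicate 2 or 3, and 1 with no filter). Without the gene of the highest mean CPM in each sum, the log2 ratio of 1CT-A over 1CT was -0.68 for all members, 0.92 for H1, -1.38 for H2A, -1.39 for H2B, 1.04 for H3, 0.71 for H4, 0.12 for HIST1 and -1.61 for HIST2, against 0.03, 0.42, -1.76, -0.62, -0.24, 0.95, 0.60 and -1.83 with it. The sums of all members and of H3 thus turn on 1 gene. Most of the HIST1 rise was also that of 1 gene, HIST1H4C. The H2A and HIST2 sums without HIST2H2AA4 still held its near-identical copy HIST2H2AA3, so this step alone did not show whether they turn on the pair. HIST2H2AA3 and HIST2H2AA4 together held 146 of the 152 CPM of H2A in 1CT and 35.9 of 44.8 CPM in 1CT-A. Outside the pair, the H2A genes of the HIST1 group summed to 2.85 CPM in 1CT and 3.81 CPM in 1CT-A on average. HIST2H2AC had means of 2.89 and 4.68 CPM, and HIST2H2AB and HIST3H2A were under 1 CPM. The fall of the H2A sum was therefore that of the pair, and the H2A genes outside it were not lower together. In the HIST2 group, the H2B genes were lower as well, at 28.3 CPM in 1CT and 8.30 CPM in 1CT-A. For olfactory receptor genes the log2 ratio was -1.41, and -1.69 without OR7E12P. Depth limits the 56 untested members, whose differences were not detectable at these counts.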
